A study of Homo sapiens with 4 samples.

Results

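The genes SIRT1, HIF1A, VEGFA, MCL1, BCL2, BCL2L11 and PTMA are cited as targets of the RNA-binding protein HuR in stress survival and hypoxia. Described here are all peaks of 2 deposited lists that share at least 1 bp with the gene's span on the genome build hg19, from transcript start to transcript end (the gene window). This gave 31 of 47930 peaks of the unirradiated cells and 29 of 36216 peaks of the irradiated cells, or 60 of 84146 in all. Only positions were used to choose these peaks, not scores, but the genes were chosen with earlier results of these data known. Of the 7 genes, 6 held peaks at both doses, and MCL1 held none at either.

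RNA immunoprecipitation with sequencing (RIP-seq) was carried out on WS1, an established line of human skin fibroblasts, that received 0 or 5 Gy of X-rays. Each dose is represented by 1 HuR library and 1 control library made with non-specific immunoglobulin (IgG), so that 4 libraries form 4 groups. The lists, 1 per dose, hold the peaks of HuR over the IgG library of the same dose. The labels give no genetic change in any group, and the time between irradiation and harvest is not given in the sources used here.

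Since each group is 1 library, differences between the doses have no replicate check, no test was made, and each statement below compares these 2 lists only. The median peak score was 136.6 at 0 Gy and 143.4 at 5 Gy, and the median peak length was 448 and 559 bp. The score is the authors' own, starts at about 60, grows with sequencing depth, which is unknown, and is tied at 3100 for many of the strongest peaks. The p-value of 1e-06 in the list names would lie at this lowest score on the significance scale of the peak caller MACS. A ratio of scores below is therefore not a fold change in bound RNA. Peaks in both lists are numbered without a gap up to 47930 and 36216. The fibroblast identity of the cells and the other genes of the hypoxia, BCL2 and sirtuin families were not analysed here, because no hg19 annotation was at hand.

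HuR, the product of ELAVL1, is a mostly nuclear protein that binds U-rich and AU-rich stretches, many of them in 3′ untranslated regions and introns, and moves to the cytoplasm under stress. There it is known to stabilise or to change the translation of mRNAs with short half-lives. HIF1A encodes the oxygen-regulated subunit of a transcription factor whose targets include VEGFA, the main growth factor of blood vessels. SIRT1 encodes a NAD-dependent deacetylase, and PTMA encodes prothymosin alpha, a small acidic protein that restrains the apoptosome. BCL2 and MCL1 encode proteins that protect cells from apoptosis, and BCL2L11 encodes BIM, which promotes it.

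In 4 of the genes a peak lay at the transcript start at both doses, so the stretches around the start are shown for comparison of their base composition. RefSeq's promoter table held entries for 5 of the 7 genes, SIRT1, HIF1A, PTMA, BCL2 and BCL2L11. VEGFA and MCL1 had none. Each line gives 120 bases before the start in lower case and the first 30 transcribed bases in capitals, 5′ to 3′ on the gene's strand. These are reference sequences of another build than the peaks. The RefSeq gene and the hg19 window have the same length for BCL2L11 (47532 bp), and differ for SIRT1 (33735 and 33721 bp), HIF1A (52746 and 52859 bp), PTMA (5027 and 5016 bp) and BCL2 (196745 and 196035 bp), so the starts may not coincide. HIF1A has 2 listed starts, of which the first is shown.
HIF1A (GRCh38.p14, chr14:61695393-61695542, plus strand): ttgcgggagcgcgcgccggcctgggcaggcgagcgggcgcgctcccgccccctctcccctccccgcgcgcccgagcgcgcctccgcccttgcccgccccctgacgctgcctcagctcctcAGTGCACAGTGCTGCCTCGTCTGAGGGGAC
SIRT1 (GRCh38.p14, chr10:67884536-67884685, plus strand): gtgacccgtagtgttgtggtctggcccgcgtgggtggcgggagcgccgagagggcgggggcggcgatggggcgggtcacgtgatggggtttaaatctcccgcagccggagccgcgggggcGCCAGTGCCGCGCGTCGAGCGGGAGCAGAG
PTMA (GRCh38.p14, chr2:231708405-231708554, plus strand): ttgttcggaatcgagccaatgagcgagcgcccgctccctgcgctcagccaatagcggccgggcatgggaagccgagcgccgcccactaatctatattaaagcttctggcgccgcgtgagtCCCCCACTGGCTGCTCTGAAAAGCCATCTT
BCL2 (GRCh38.p14, chr18:63319740-63319889, minus strand): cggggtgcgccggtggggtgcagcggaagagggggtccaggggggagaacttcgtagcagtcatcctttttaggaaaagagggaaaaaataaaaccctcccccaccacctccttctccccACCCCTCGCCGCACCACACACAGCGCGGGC
BCL2L11 (GRCh38.p14, chr2:111120794-111120943, plus strand): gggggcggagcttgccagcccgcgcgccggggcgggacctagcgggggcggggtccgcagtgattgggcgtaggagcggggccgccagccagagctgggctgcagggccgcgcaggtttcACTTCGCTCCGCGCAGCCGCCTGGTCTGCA
T made up 22.0% of the first 50 transcribed bases of HIF1A, 4.0% for SIRT1, 28.0% for PTMA, 10% for BCL2 and 28.0% for BCL2L11. At the other listed start of HIF1A it was 36%. The median over 35116 promoters in the table was 20.0%. PTMA, with a peak across the start, and BCL2L11, without one, had the same share. SIRT1, also with a peak across the start, had the lowest of the 5. Whether these shares go with the peaks was not tested. The AU-rich core ATTTA and the run TTTTT, whose matches may overlap each other, occurred in none of these 5 stretches of 50 bases, nor at the other HIF1A start, against 2.28% and 3.72% of all promoters. Over the full 300 bases, ATTTA occurred on the opposite strand of SIRT1 (19.4% of all promoters), and TTTTT occurred on both strands of BCL2 (24.9% and 24.5%). The other HIF1A start had 2 matches of ATTTA and 1 of TTTTT on the opposite strand. These matches describe the letters only.

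HIF1A, VEGFA, SIRT1 and PTMA each had a peak within 200 bp of the transcript start and another within 200 bp of the transcript end, at both doses. The 8 peaks at these ends scored at least 619.92 at 0 Gy and at least 782.07 at 5 Gy. They made up 46.0% of the covered length of the 4 genes at 0 Gy (11.14 kb) and 49.7% at 5 Gy (11.97 kb). BCL2, BCL2L11 and MCL1 had no peak within 200 bp of the transcript end at either dose. The limit of 200 bp was not part of the plan and was not varied, and no share over the whole lists is given. The strongest BCL2 peak fell outside it, 490 bp from the start at 0 Gy and 449 bp at 5 Gy. Exons, introns and untranslated regions were not assigned.

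**Figure D1:**
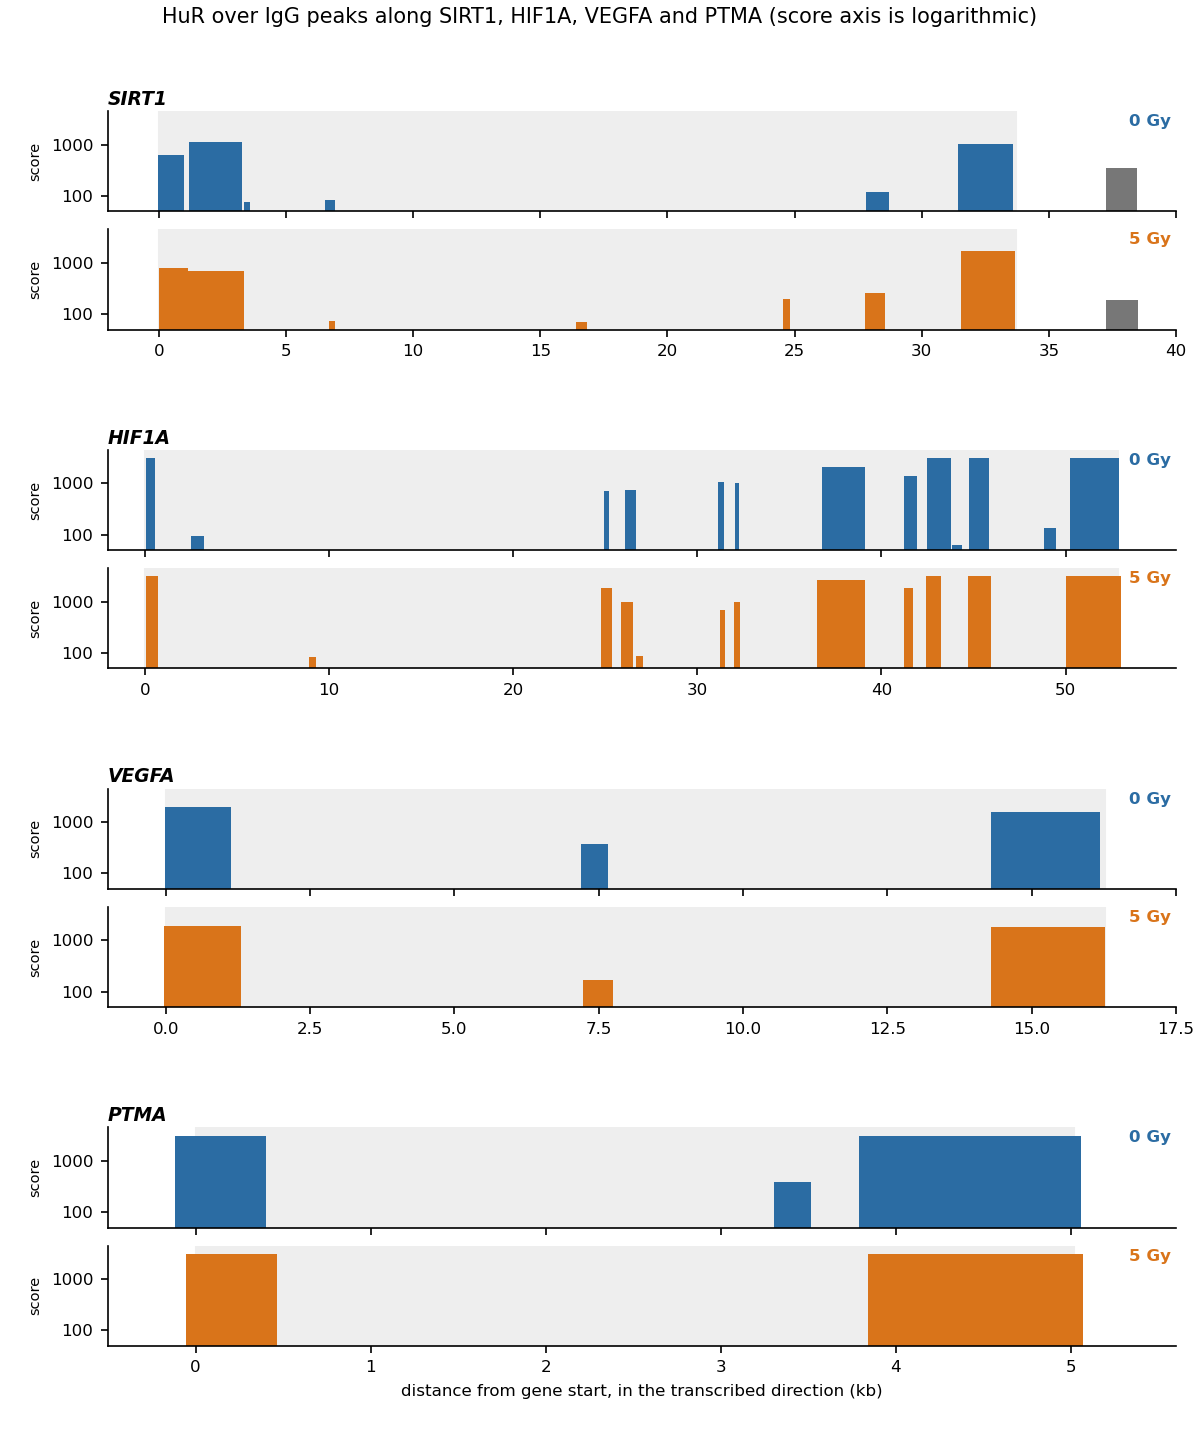
Peaks along SIRT1, HIF1A, VEGFA and PTMA at 0 Gy (blue) and 5 Gy (orange), by distance from the transcript start in kb; bar height is the authors' score on a logarithmic axis that begins at 50, and 1 library pair stands behind each dose. Grey shading is the gene window and grey bars are peaks outside it; in all 4 genes a peak stands at the start and at the end at both doses.

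HIF1A (chromosome 14, 62162119 to 62214977) carried the most peaks, 13 at 0 Gy and 12 at 5 Gy. They covered 11.96 kb at 0 Gy and 11.3 kb at 5 Gy, or 22.6% and 21.1% of the window. Of these peaks, 8 scored at least 1000 at 0 Gy and 7 at 5 Gy, and 10 of each list overlapped the other list. In both lists the strong peaks lay at the start and in the part from about 25 kb onward, and the stretch between held only peaks scoring under 100.

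At the transcript end of HIF1A, a peak of 2641 bp at 0 Gy (62212362 to 62215002) and a peak of 2943 bp at 5 Gy (62212167 to 62215109) both scored 3100. They ended 25 and 132 bp past the window. Other peaks at or above the tie at 0 Gy were those from 62204571 to 62205881 (1311 bp) and from 62206880 to 62207957 (1078 bp). At 5 Gy these positions held peaks from 62204521 to 62205336 (816 bp, score 3128.29) and from 62206814 to 62208059 (1246 bp, score 3100). The peak at the start, named after its values were seen, scored 3100 in both lists, with a length of 480 bp at 0 Gy and 689 bp at 5 Gy. It began 58 and 42 bp inside the window. For these 4 pairs, all at or above the tie, the score cannot show a difference between the doses.

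Below the tie, the scores of HIF1A moved in both directions. The largest ratio was that of the peak 25 kb into the gene, with a score of 704.22 at 0 Gy (62187082 to 62187331, 250 bp) and 1840.85 at 5 Gy (62186916 to 62187505, 590 bp). This is 2.61-fold higher at 5 Gy, and the peak was 2.36-fold longer. In the opposite direction, the peak 31.1 kb from the start scored 1040.67 at 0 Gy (62193223 to 62193572) and 702.86 at 5 Gy (62193386 to 62193593), a ratio of 0.675. The highest-scoring HIF1A peaks without a match were low in both lists, with 136.65 at 0 Gy (62210956 to 62211622) and 86.38 at 5 Gy (62188815 to 62189200). RefSeq lists the antisense transcripts HIF1A-AS1, HIF1A-AS2 and HIF1A-AS3 over parts of HIF1A. The lists hold no strand, so reads of HIF1A and of these RNAs cannot be told apart.

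VEGFA (chromosome 6, 43737946 to 43754223) had 3 peaks in each list, and each overlapped its counterpart. The peak at the start scored 1954.2 at 0 Gy (43737938 to 43739072, 1135 bp) and 1913.9 at 5 Gy (43737912 to 43739252, 1341 bp). At the transcript end the scores were 1545.66 at 0 Gy (43752250 to 43754132, 1883 bp) and 1833.84 at 5 Gy (43752237 to 43754223, 1987 bp). The 5 Gy peak ended at the last base of the window and the 0 Gy peak 91 bp before it. Between these ends, a shorter peak 7.2 kb from the start scored 368.66 at 0 Gy (43745147 to 43745607, 461 bp) and 169.96 at 5 Gy (43745180 to 43745697, 518 bp). That score was thus 2.17-fold lower at 5 Gy, while the ratio of 5 Gy to 0 Gy was 0.979 at the start and 1.19 at the end of the gene. Of the bases under a VEGFA peak at either dose, 88.8% were under a peak at both.

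SIRT1 (chromosome 10, 69644427 to 69678147) had 6 peaks at 0 Gy and 7 at 5 Gy, covering 20.1% and 21.3% of the window. The peak at the start scored 619.92 at 0 Gy (69644406 to 69645426) and 782.07 at 5 Gy (69644419 to 69645560). The next peak, which nearly touches it at 5 Gy but not at 0 Gy, scored 1113.06 at 0 Gy (69645629 to 69647696, 2068 bp) and 695.9 at 5 Gy (69645562 to 69647774, 2213 bp), a ratio of 0.625. At the transcript end the order turned, with 1048.48 at 0 Gy (69675838 to 69678028, 2191 bp) and 1673.57 at 5 Gy (69675990 to 69678104, 2115 bp), a ratio of 1.6. The strongest SIRT1 peak was therefore near the start at 0 Gy and at the end at 5 Gy.

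A weaker SIRT1 peak 27.8 kb from the start scored 117.87 at 0 Gy (69672252 to 69673153) and 255.23 at 5 Gy (69672214 to 69673000), which is 2.17-fold higher at 5 Gy. The 5 Gy list also held a peak of 264 bp without a match (69668982 to 69669245, score 200), with the nearest 0 Gy peak 3006 bp away. This was the highest score among the unmatched 5 Gy peaks of the 7 genes. At 0 Gy the only unmatched SIRT1 peak scored 76.49 (69647788 to 69648021) and lay 13 bp from a 5 Gy peak. The other unmatched 5 Gy peak (69660826 to 69661267), named after its values were seen, scored 70.28, and 12.8% of the 5 Gy list scored lower. With both unmatched 5 Gy peaks, the longest stretch of SIRT1 without a peak was 9.5 kb at 5 Gy and 20.9 kb at 0 Gy. The 5 Gy value thus rests in part on a peak of low score.

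PTMA (chromosome 2, 232573235 to 232578250), the shortest of the genes with peaks, had the largest share of its window under peaks, 36.7% at 0 Gy and 32.8% at 5 Gy. The peak at the start scored 3100 in both lists (232573117 to 232573635 at 0 Gy, 232573182 to 232573703 at 5 Gy). It began 118 bp before the window at 0 Gy and 53 bp before it at 5 Gy. The peak at the end also scored 3100 in both (232577026 to 232578291, 1266 bp, and 232577074 to 232578301, 1228 bp). A peak of 213 bp (232576538 to 232576750) was in the 0 Gy list alone, with a score of 393.23 and a 5 Gy peak 323 bp away. It had the highest score of all unmatched peaks in the 7 genes.

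The end of PTMA also holds a microRNA. RefSeq places the mature sequence of MIR1244-1 4843 bases after the start of PTMA and 158 bases before its end. The end peaks began 3791 and 3839 bp after the start of the hg19 window and reached past its end. It is shown because the same sequence recurs elsewhere in the genome, with the seed (bases 2 to 8) in capitals.
hsa-miR-1244: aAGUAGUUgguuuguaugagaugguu
RefSeq lists 4 MIR1244 hairpins with identical sequence and 15 pseudogenes of PTMA. How reads with several matching positions were treated is not given in the sources used here, so the scores of PTMA are uncertain to that extent. HIF1A has 1 such pseudogene in the table.

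BCL2 (chromosome 18, 60790579 to 60986613) runs on the minus strand, so its start is at the higher coordinate. All its peaks ended within 4429 bp of the start, which left 191.6 kb at 0 Gy and 191.8 kb at 5 Gy up to the transcript end without a peak. The strongest scored 311.92 at 0 Gy (60984616 to 60986123, 1508 bp) and 251.32 at 5 Gy (60984518 to 60986164, 1647 bp). Further in, a peak scored 60.77 at 0 Gy (60982184 to 60982536) and 83.19 at 5 Gy (60982427 to 60982833), with 110 bp in both. A peak scoring 74.17 (60983833 to 60984223) was in the 0 Gy list alone. At 5 Gy a peak of 561 bp scoring 81.45 (60986422 to 60986982) crossed the start. It overlapped a 0 Gy peak scoring 67.35 (60986704 to 60987006) that lies just outside the window, so BCL2 had no unmatched peak at 5 Gy. Within 60 kb outside the BCL2 window there were 18 peaks at 0 Gy and 12 at 5 Gy. The highest scored 2025.25 and 1745.02 and lay upstream of the start, on the side of the neighbouring gene KDSR, which is named from background knowledge.

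BCL2L11 (chromosome 2, 111878491 to 111926022) had only short peaks of low score. At 0 Gy they scored 82.07 (111884124 to 111884566), 92.43 (111891033 to 111891411) and 64.15 (111911016 to 111911316). At 5 Gy they scored 90.58 (111909603 to 111909814) and 60.38 (111910086 to 111910417). No BCL2L11 peak of one list overlapped a peak of the other, and the closest pair was 598 bp apart. The covered length was 1.12 kb at 0 Gy and 0.54 kb at 5 Gy, a log2 ratio of -1.05. Under a score of 150, an overlap was found for 35.0% of such peaks in the whole 0 Gy list and 53.8% in the whole 5 Gy list. That class reaches above the BCL2L11 scores, which were at most 92.43.

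MCL1 (chromosome 1, 150547027 to 150552214) held no peak at either dose. The nearest peaks on its lower-coordinate side were 25.5 kb away at 0 Gy (150520961 to 150521482, score 126.11) and 25.3 kb away at 5 Gy (150521441 to 150521747, score 100.44). On the other side the nearest were 49.4 kb away in both lists, with scores of 349.25 at 0 Gy (150601646 to 150602171) and 106.97 at 5 Gy (150601630 to 150602105). The lists hold only peaks that passed the authors' threshold over IgG, so the level of MCL1 RNA in the HuR and IgG libraries is not known from them.

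**Figure D2:**
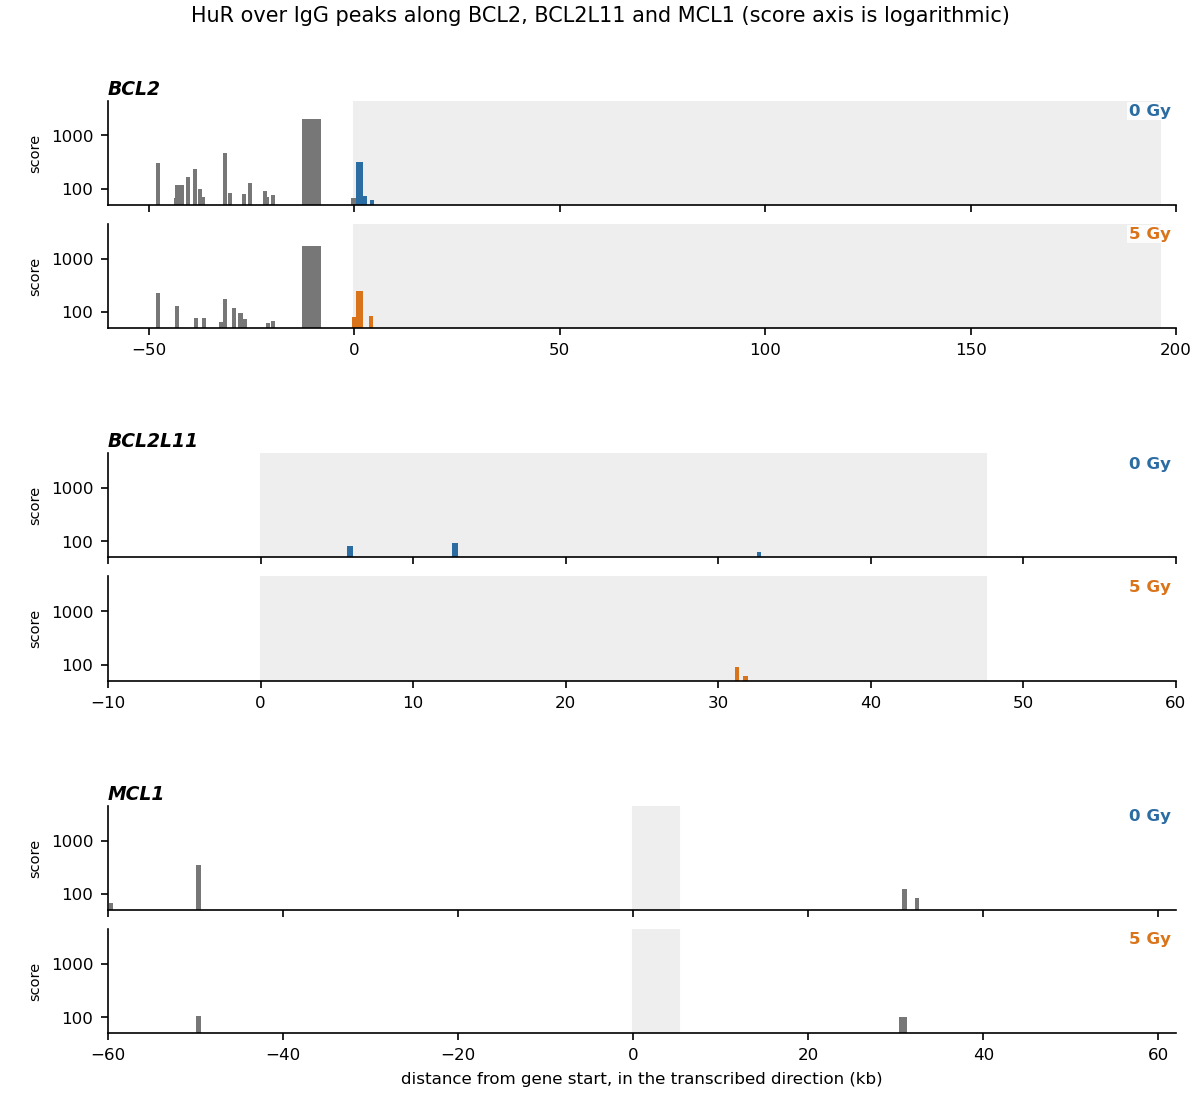
Peaks along BCL2, BCL2L11 and MCL1 at 0 Gy (blue) and 5 Gy (orange), by distance from the transcript start in kb; bar height is the authors' score on a logarithmic axis that begins at 50. Grey shading is the gene window and grey bars are peaks outside it; BCL2 peaks stand at the start alone, BCL2L11 peaks score at most 92.43, and the MCL1 window is empty.

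Over the 7 genes, there were 29 peaks after irradiation and 31 before, a ratio of 93.5% (95% interval of counting error 56.7 to 154.0). The whole lists gave 75.6% (95% interval 74.5 to 76.6), which lies inside the wide interval of the 7 genes. Covered length in the 7 genes was 27.6 kb at 0 Gy and 27.2 kb at 5 Gy, or 98.7%, against 91.7% for the whole lists. Gene by gene, covered length at 5 Gy was 116.0% of that at 0 Gy for BCL2, 111.0% for VEGFA, 106.0% for SIRT1, 94.5% for HIF1A, 87.6% for PTMA and 48.4% for BCL2L11. BCL2L11 was past 2-fold as deposited, with a log2 ratio of -1.05, but not with equal list sizes (-0.6) or with peaks within 1 kb joined (-0.46). Its peaks form 2 separate groups that went opposite ways, with 0.82 kb at 0 Gy and none at 5 Gy nearer the start, and 0.3 kb at 0 Gy and 0.54 kb at 5 Gy further in. For scale, neighbouring peaks at most 10 kb apart in either list were merged into regions. Of the 10958 regions with peaks at both doses, 9.13% had a covered length at least 2-fold lower at 5 Gy and 5.84% at least 2-fold higher. These regions are not genes, and the first BCL2L11 group is not among them. The direction for BCL2 turned with the setting, with a log2 ratio of 0.22 as given, 0.79 with equal list sizes, -0.13 for peaks wholly inside the window and -0.3 with peaks within 1 kb joined. That for HIF1A turned from -0.08 to 0.07 at a minimum score of 150.

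**Figure D3:**
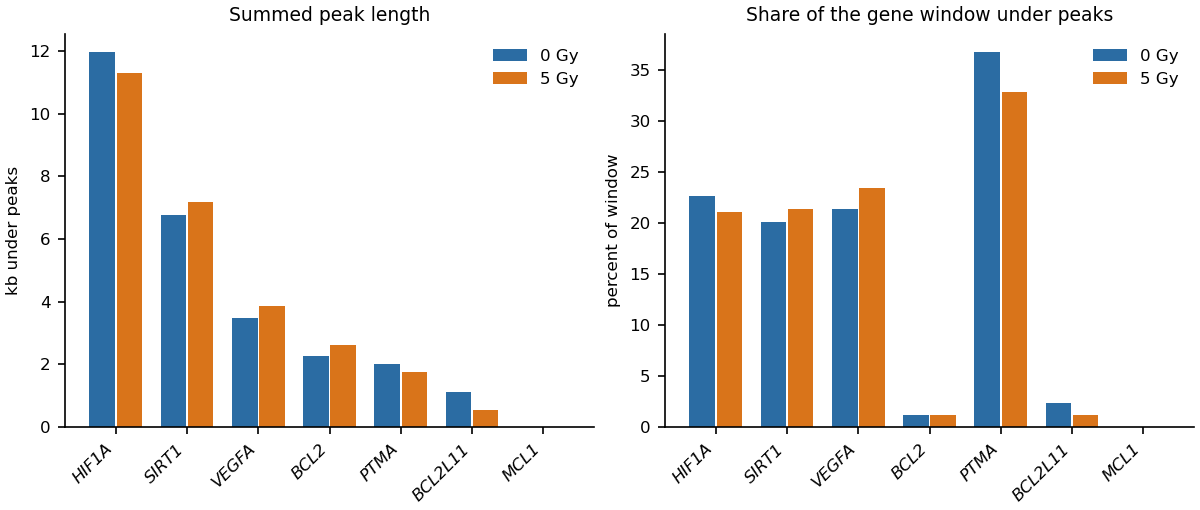
Summed peak length in kb (left) and percent of the gene window under peaks (right) for each gene at 0 Gy (blue) and 5 Gy (orange), 1 value per dose with no error bars. HIF1A has the greatest length (11.96 and 11.3 kb) and PTMA the greatest share (36.7% and 32.8%), and MCL1 is at 0.

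Among the joined regions, the 28.2 kb region over the later part of HIF1A ranked 512 of 15970 by covered length, and the region of SIRT1 ranked 865. VEGFA ranked 3091, the part of HIF1A near the start 7145, and PTMA 5390. The 2 regions of BCL2L11 ranked 10700 and 10793, with 32.9% and 32.4% of regions less covered. The region at the start of BCL2 ranked 258, but it extends over 52.6 kb and far beyond the gene, so its rank does not describe BCL2.

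Of the 31 peaks at 0 Gy, 22 (71.0%, Wilson 95% interval 53.4 to 83.9) overlapped a 5 Gy peak and 9 did not. In the whole 0 Gy list 41.9% of peaks had no overlapping 5 Gy peak. Of the 29 peaks at 5 Gy, 23 (79.3%, 95% interval 61.6 to 90.2) overlapped a 0 Gy peak and 6 did not, against 27.0% without an overlap in the whole 5 Gy list. At scores of at least 150, 19 of 20 member peaks at 0 Gy and 20 of 21 at 5 Gy were shared, beside 84.8% and 93.4% in the lists. Under 150, 3 of 11 and 3 of 8 were shared, beside 35.0% and 53.8%. With counts this small, neither class was set apart from the lists. Intervals reflect counting error alone and take each peak as a separate observation.

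Peaks with a score of at least 1000 numbered 14 of 31 at 0 Gy (45.2%, 95% interval 29.2 to 62.2) and 12 of 29 at 5 Gy (41.4%, 95% interval 25.5 to 59.3). In the whole lists the shares were 12.2% and 13.1%. Several of these peaks lie in the same gene, so the intervals do not measure a difference from the lists. HIF1A supplied 8 of the 14 and 7 of the 12. Without HIF1A, 6 of 18 peaks (33.3%) and 5 of 17 (29.4%) reached that score, all of them in SIRT1, VEGFA and PTMA.

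In 22 cases a member peak of each list lay only against the other. Of these pairs, 2 had a score at least 2-fold higher at 5 Gy, the HIF1A and SIRT1 peaks above, and 7.55% of all 19750 such pairs did. The VEGFA peak 7.2 kb from the start was the only pair at least 2-fold lower at 5 Gy, and 22.1% of all pairs were. When 0 Gy scores were scaled by the median ratio of all pairs under 3100, no member pair was 2-fold lower, and the same 2 stayed 2-fold higher. The shares of 7.55% and 22.1% are unscaled, and no scaled share of all pairs is given. The scaled counts therefore cannot be set against the lists. The SIRT1 pair at the transcript end (unscaled ratio 1.6) then lay at the 2-fold limit. It reached that limit only after its ratio was rounded. Of the 16 pairs with both scores under 3100, 9 scored higher at 5 Gy and 7 lower, with a median ratio of 1.23 (range 0.461 to 2.61). Over all 17408 such pairs, 6285 scored higher at 5 Gy and the median ratio was 0.8. The edges of the member pairs differed by a median of 65 bp at the lower coordinate and 96 bp at the higher one, beside 56 and 65 bp over all pairs. In 15 of the 22 pairs the 5 Gy peak exceeded the 0 Gy peak in length, as in 11513 of all 19750, with a median length ratio of 1.1, beside 1.03 over all pairs. These pairs share 2 HuR and 2 IgG libraries and several lie in the same transcript, so they are not independent.

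**Figure D4:**
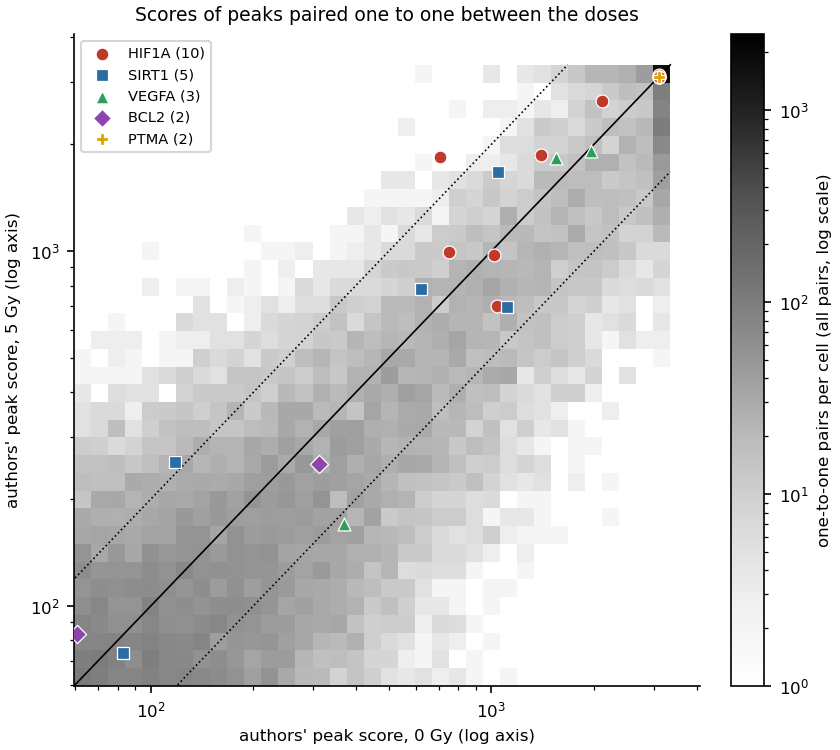
Authors' peak score at 0 Gy against 5 Gy on logarithmic axes for the 22 member pairs (colours by gene, number of pairs in brackets) over the density of all 19750 pairs (grey). The solid line marks equal scores and the dotted lines a 2-fold difference; 2 member pairs lie above the upper dotted line and 1 below the lower, and 5 pairs coincide at 3100 in both lists.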

How the data were processed

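The authors deposited 2 peak lists, 1 per dose, with chromosome, start, end and a peak score whose scale is not stated. The submitters' processing notes name cutadapt 1.9.1, Bowtie2 2.2.4 and hg19. Peak names begin with MACS, and the list names carry 1e-06, 10 and 30. Depth and the treatment of duplicate and multi-mapping reads are not stated there.

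A peak belonged to a gene, or was shared between lists, with at least 1 bp of overlap (counts of shared peaks were equal in bedtools 2.31.1). Starts are counted from 1. Transcribed direction came from RefSeq's promoter table and, for VEGFA and MCL1, from background knowledge. Shares have Wilson 95% intervals, and the ratio of peak numbers has the Wilson interval of the 5 Gy fraction, converted to a ratio. Overlap and gene assignment were tested on simulated data. All peaks of genes with at most 6 peaks were named. For SIRT1 and HIF1A, the 3 highest-scoring, the longest and the highest unmatched peak of each list and the pairs with the most extreme score ratios were named. The genes and comparisons were chosen with earlier results of these data known. Alternatives were a minimum score of 100 or 150, peaks wholly inside windows, windows widened by 5 kb, equal list sizes, joining within 1 kb and 50% reciprocal overlap. Python 3.11.15, numpy 2.4.6, pandas 2.3.3, scipy 1.17.1 and matplotlib 3.10.9 were used.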

Additional observations from a re-analysis of the deposited data

How the results depend on the processing

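Of 67 values recomputed for 12 results under 10 settings, 62 stayed within the interval of the reported value, or within 1.5 times of it for lengths and counts, and 5 did not. The shared percentage of 0 Gy peaks (71.0%) was 90.9% with a minimum score of 100 and 95% with a minimum of 150, and that of 5 Gy peaks (79.3%) was 95.2% and 90.5%. Here the matching peak also had to reach the minimum, unlike in the 20 of 21 shared 5 Gy peaks above. Whole-list shares were not computed that way. When only the peak itself had to score at least 150, 84.8% of the whole 0 Gy list was shared, beside 58.1% of all its peaks. For the 5 Gy list these shares were 93.4% and 73.0%. A larger share among high scores is therefore not particular to the 7 genes. The 1 pair at least 2-fold lower at 5 Gy became 0 when 0 Gy scores were scaled by the median ratio of all pairs under 3100, 0.8. No share of all pairs under this scaling is given beside it. The pairs at least 2-fold higher then numbered 3 with rounded ratios. Without rounding, the SIRT1 pair at the transcript end (unscaled ratio 1.6) stayed just under the limit. The order of the doses by peak number was not stable. The 5 Gy number was between 88.5% and 112.0% of that at 0 Gy, and above it with a minimum score of 150, with peaks within 1 kb joined and with equal list sizes. For BCL2L11, the log2 ratio of covered length moved from -1.05 to -0.46 with peaks joined and -0.6 with equal list sizes, under 2-fold. It had no value at score minima of 100 or 150, where no BCL2L11 peak is left, and PTMA had none with peaks wholly inside the window, since both 5 Gy peaks cross its ends. Without HIF1A the shared percentages were 66.7% and 76.5%. The score scaling, the restriction to scores under 3100 and the omission of HIF1A were chosen after seeing the data. No paired analysis was possible because only 1 library stands behind every group. Unknown depth limits all comparisons of scores and peak numbers.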
